A study of Rattus norvegicus with 6 samples.

Results

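The NRF2 and glutathione redox genes were 9 genes, namely Nfe2l2, Gclc, Gclm, Gsr, Txnrd1, Hmox1, Nqo1, Srxn1 and Prdx1. Their members were the probe sets of a rat Affymetrix array whose single gene symbol was one of these names, and every such probe set is described, whatever its values. The array gave 12 probe sets for 8 of the 9 genes, out of 31042 probe sets in all. Prdx1, a peroxiredoxin that reduces hydrogen peroxide, had 0 probe sets with a single symbol and was not measured. Gclc and Txnrd1 had 2 probe sets each, Srxn1 had 3, and each of the other measured genes had 1.

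The study compared liver RNA of BioBreeding Diabetes Resistant (BBDR) rats before and shortly after spontaneous diabetes set in. The post-hyperglycemia group were BBDR.lyp/lyp rats at 55 days of age, within 5 days, after glucose had risen. The pre-hyperglycemia group were BBDR.lyp/lyp rats at 50 days, within 5 days, before that. The BBDR.+/+ group were rats of the same strain at 55 days that lack the mutation and resist spontaneous diabetes. Each group had 2 arrays, so all 3 comparisons rest on 6 arrays and share them in pairs. All groups share the BBDR background, and BBDR.lyp/lyp rats are homozygous for lyp, a mutation of Gimap5 that was bred in from the diabetes-prone BB rat and leaves few T cells. Pre- and post-hyperglycemia rats differ in age as well as in glucose. Post-hyperglycemia and BBDR.+/+ rats differ in genotype as well as in glucose, and pre-hyperglycemia and BBDR.+/+ rats in genotype as well as in age. Within each comparison the 2 cannot be told apart. The labels describe a fast of the rats before collection, whereas the methods describe free access to food. Nothing in the labels says whether the 2 arrays of a group came from separate rats, so each p-value measures only the spread between these samples, which may be technical.

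NRF2, the protein of Nfe2l2, is a transcription factor that cells keep at a low level by tagging it for destruction through KEAP1. Oxidants and electrophiles modify KEAP1, NRF2 then builds up, pairs with small MAF proteins and binds antioxidant response elements near its target genes. In liver these targets make and recycle glutathione, rebuild oxidized thioredoxin and peroxiredoxins, break down heme and reduce quinones. NRF2 is controlled mainly at the protein level, which arrays do not measure.

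Values are normalized signals on the log2 scale, 1 per probe set and array, so a difference of 1 is a doubling. The probe set of a gene with the highest mean over all arrays is called its brightest and stands for the gene where 1 value per gene is needed. Fold changes and their tests came from limma over all 31042 probe sets. A probe set was called at a Benjamini-Hochberg adjusted p under 0.05. The number of arrays limits the precision. In bulk liver RNA, fewer cells of a type and less RNA per cell cannot be told apart.

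For beta-actin and GAPDH the arrays also hold separate control probe sets near either end of the transcript. Their mean difference, 3′ end minus 5′ end, was 1.74 and 1.68 on the post-hyperglycemia arrays, 1.09 and 0.93 on the pre-hyperglycemia arrays and 1.04 and 0.78 on the BBDR.+/+ arrays. The post-hyperglycemia arrays thus stood apart from the other arrays in this control. Array medians lay between 5.90 and 5.94. All 6 measured hepatocyte markers lay at 13.3 or more on average, led by albumin (Alb) at 14.6, and their summed linear signal ranged over 92877 to 93779 in post-hyperglycemia, 92001 to 93187 in pre-hyperglycemia and 91619 to 92061 in BBDR.+/+ liver. Gimap5 itself read 5.71 and 5.91 after hyperglycemia, 5.52 and 5.85 before it, and 6.43 and 6.45 in BBDR.+/+.

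The antioxidant response element was looked for in the RefSeq promoter of each gene (assembly GRCr8), a stretch of 250 bases before and 50 after the transcript start. Matches are shown because NRF2 is known to act through such elements. Elements farther away were not searched for. Promoters were found for 7 of the 9 genes, all but Gsr and Hmox1, as 8 sequences. The core letters TGACNNNGC, searched on both strands, were found in 4 of the 8 member promoters and in 12.1% of all 33469 rat promoters of that length. The relaxed form TGAGNNNGC was found in 1 of the 8, that of Srxn1, and in 17.2% of all promoters. Either form was found in 5 of the 8 and in 27.1% of all promoters. The promoters of Gclc and Nqo1 held neither form. The letters TGACTCA, the AP-1 element, overlap these forms and were found in 2 of the 8 and in 4.63% of all. A match is a description of the letters, not a binding site. The windows below hold the match in capitals, read as its reverse complement on the strand of the gene. The Gclm window lies at chr2:213031938-213031996 (+ strand), with the match 172 bases before the start. The Txnrd1 window, of 1 of its 2 promoters, lies at chr7:22755949-22756007 (- strand), 78 bases before the start. The Srxn1 windows lie at chr3:161064669-161064727 and chr3:161064770-161064811 (+ strand), 118 and 17 bases before the start. Another Srxn1 match of the relaxed form, on the gene's own strand, began 5 bases before the start and reached past it, and is not printed. Prdx1 held the core form 135 bases before its start and Nfe2l2 held it after its start.
Gclm: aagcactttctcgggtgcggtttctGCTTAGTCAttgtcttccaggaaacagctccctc
Txnrd1: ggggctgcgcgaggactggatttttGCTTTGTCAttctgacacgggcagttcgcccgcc
Srxn1, distal: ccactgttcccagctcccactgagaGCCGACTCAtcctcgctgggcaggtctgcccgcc
Srxn1, proximal: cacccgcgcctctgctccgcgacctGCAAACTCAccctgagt

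Of the 12 member probe sets, 3 were lower in post-hyperglycemia than in BBDR.+/+ liver, 0 were higher and 9 did not pass. The 3 were the single probe set of Gsr and the dimmer probe sets of Gclc and Txnrd1. At an unadjusted p under 0.05, 4 were lower and 2 higher, against 8.98% lower and 10.7% higher over all probe sets. Rank product, which the methods used beside a t-test, called 2, both lower. Over all probe sets limma called 5.15%, with 3.26% lower and 1.89% higher, and rank product 2.38%, with 1.75% lower and 0.638% higher. The median log2 fold change was -0.16 over the 12 probe sets and 0.01 over all probe sets. Signs follow the deposited labels, and the study lists Gclc and Txnrd1 with the opposite sign in both of its comparisons. Taken by brightest probe set, 1 of the 8 genes was lower and 0 were higher, with a median of -0.06, against 0.04 over the brightest probe sets of all 14217 genes. Of those 14217, limma called 3.52%, with 176 lower and 325 higher. The count of 3 became 1 without BBDR.+/+ replicate 2, where the share called over all probe sets fell too, to 0.937%. With the 3′ minus 5′ difference of the controls as a covariate, limma called 0 of all 31042 probe sets in either comparison with post-hyperglycemia. This covariate separates the post-hyperglycemia arrays from the others. A lost call, a smaller value or a turned sign with it therefore says nothing about a single gene. Its values are given below for the called probe sets, and in the closing section for Gclc. Gclc and Txnrd1 are among the genes that the study itself picked out on these arrays, so their calls here are no independent evidence.

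Against pre-hyperglycemia, 1 of the 12 probe sets was lower (the dimmer one of Gclc), 0 were higher and 11 did not pass. The median was -0.10. At an unadjusted p under 0.05, 3 were lower and 1 higher, against 7.65% lower and 7.29% higher over all probe sets. Over all probe sets 2.18% were called, with 1.46% lower and 0.718% higher. Rank product called 3 of the 12, all lower, and 1.72% of all probe sets, with 1.24% lower and 0.483% higher. The limma count became 3 when pre-hyperglycemia replicate 1 was left out, 2 when post-hyperglycemia replicate 2 was, and 0 when pre-hyperglycemia replicate 2 was. Over all probe sets 1.73%, 1.68% and 0.361% were called in these fits. In pre-hyperglycemia against BBDR.+/+ liver, limma called 0 of the 12, where 2 had an unadjusted p under 0.05, both lower, and rank product called 0. At that unadjusted p 4.95% of all probe sets were lower and 6.43% higher. Over all probe sets limma called 0.718% there, with 0.464% higher and 0.254% lower, and rank product 1.29%, with 0.744% higher and 0.541% lower. Groups that do not overlap are common with 2 arrays each: this held for 83.3% of the member probe sets and 48.8% of all probe sets in post-hyperglycemia against BBDR.+/+.

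**Figure D1:**
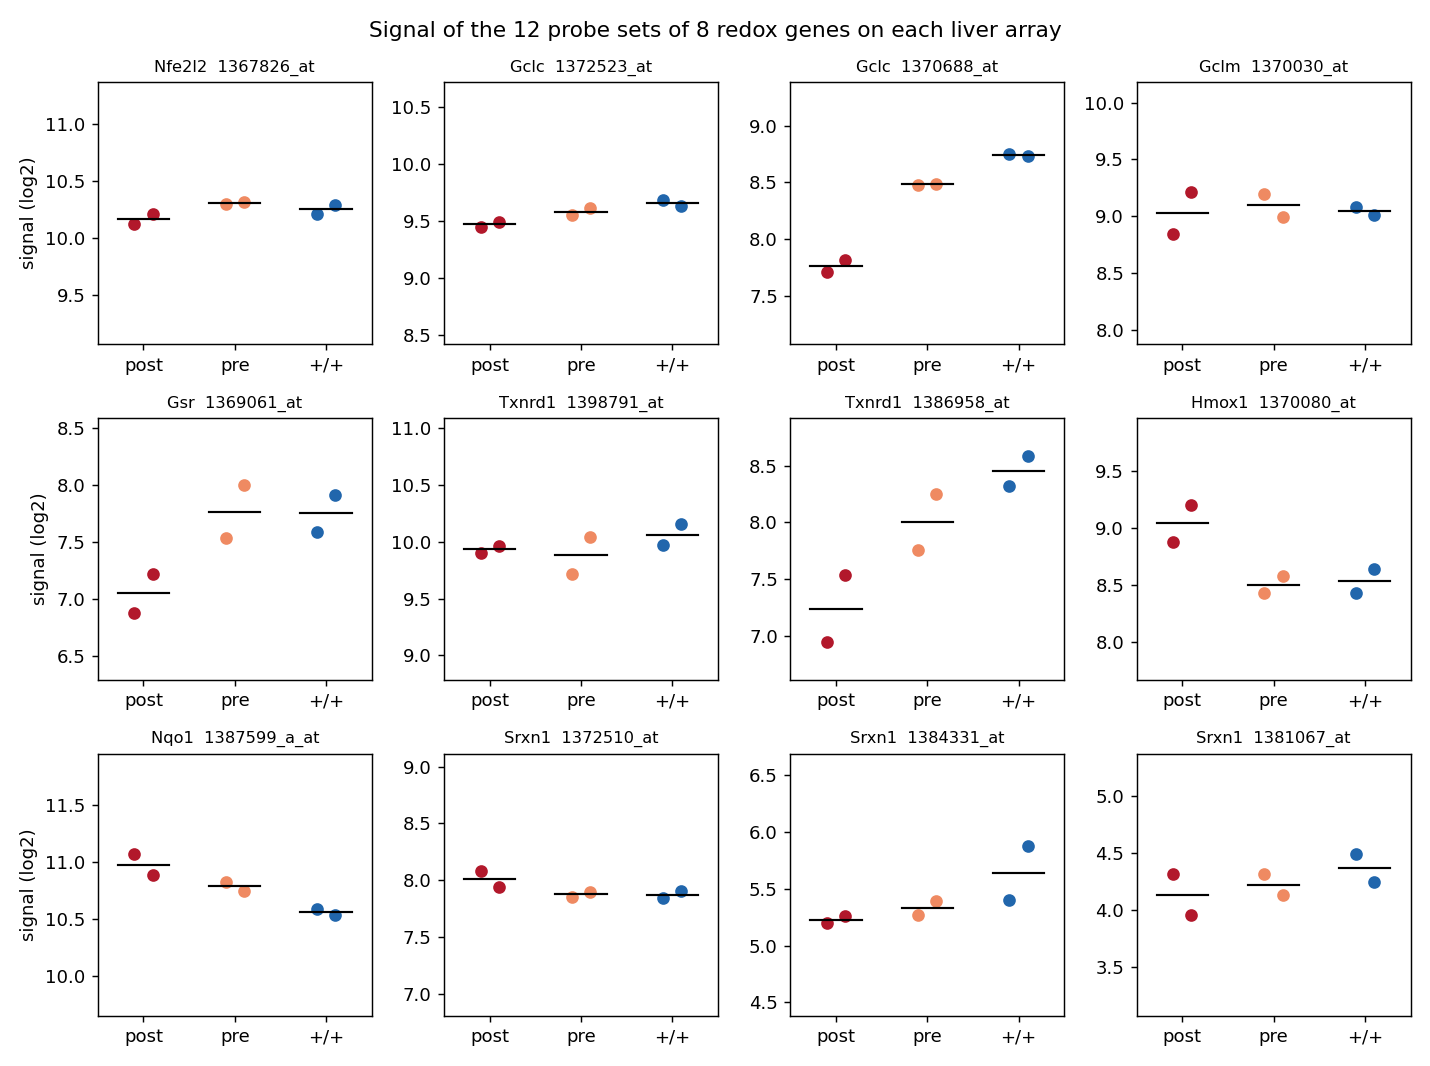
Signal (log2, vertical axis, every panel spanning the same range) of each of the 12 probe sets on the post-hyperglycemia (post), pre-hyperglycemia (pre) and BBDR.+/+ (+/+) arrays. Each point is 1 array and each line the mean of a group. Post-hyperglycemia arrays lie below all others for Nfe2l2, every Gclc probe set, Gsr, Txnrd1 1386958_at and Srxn1 1384331_at. They lie above all others for Hmox1, Nqo1 and the brightest Srxn1 probe set.

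Nfe2l2 encodes NRF2 itself. Its probe set (1367826_at) read 10.12 and 10.21 on the post-hyperglycemia arrays, 10.30 and 10.32 on the pre-hyperglycemia arrays and 10.22 and 10.30 on the BBDR.+/+ arrays. Post-hyperglycemia was the lowest group, with both arrays below the other 4, but by little. Log2 fold changes were -0.09 (95% interval -0.31 to 0.13) against BBDR.+/+ and -0.14 (-0.37 to 0.08) against pre-hyperglycemia, with limma adjusted p of 0.694 and 0.581. Between pre-hyperglycemia and BBDR.+/+ it was 0.05 (adjusted p = 0.904 from limma), so no neighbours in the order of the groups differed beyond their spread.

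Gclc and Gclm encode the catalytic and the modifier subunit of glutamate-cysteine ligase, the enzyme of the first and rate-limiting step of glutathione synthesis. The brightest Gclc probe set (1372523_at) read 9.45 and 9.49 after hyperglycemia, 9.55 and 9.61 before it and 9.69 and 9.63 in BBDR.+/+. The groups did not overlap and ran lowest after hyperglycemia and highest in BBDR.+/+, yet no pair passed. Its log2 fold change was -0.19 (95% interval -0.41 to 0.03, limma adjusted p = 0.346) against BBDR.+/+ and -0.11 (-0.33 to 0.11, adjusted p = 0.685) against pre-hyperglycemia.

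The dimmer Gclc probe set (1370688_at) had the same order of groups with much wider steps. It read 7.71 and 7.82 after hyperglycemia, 8.48 and 8.48 before it and 8.75 and 8.73 in BBDR.+/+. Relative to BBDR.+/+ it fell by 0.98 (SE 0.10, adjusted p = 7.55e-04 from limma), a signal 1.97-fold lower. Against pre-hyperglycemia it fell by 0.72 (SE 0.10, adjusted p = 0.00679 from limma), a signal 1.65-fold lower. Pre-hyperglycemia against BBDR.+/+ gave -0.26 (95% interval -0.48 to -0.03, adjusted p = 0.348 from limma). Against BBDR.+/+ the call held with any 1 array left out, and against pre-hyperglycemia it ended without pre-hyperglycemia replicate 2, at -0.72 (adjusted p = 0.0558 from limma).

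Gclm did not pass in any comparison. Its probe set (1370030_at) read 8.84 and 9.21 after hyperglycemia, 9.20 and 8.99 before it and 9.08 and 9.02 in BBDR.+/+, and all 3 groups overlapped. The log2 fold change was -0.02 (95% interval -0.32 to 0.28) against BBDR.+/+ and -0.07 (-0.37 to 0.23) against pre-hyperglycemia, with limma adjusted p of 0.957 and 0.880. The post-hyperglycemia arrays lay farthest apart, with an SD of 0.26 against 0.15 in pre-hyperglycemia and 0.05 in BBDR.+/+.

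Gsr encodes glutathione reductase, which returns oxidized glutathione to its reduced form with NADPH. Its only probe set (1369061_at) read 6.88 and 7.21 after hyperglycemia, 7.53 and 8.0 before it and 7.59 and 7.91 in BBDR.+/+. Both post-hyperglycemia arrays lay below the other 4, and the pre-hyperglycemia and BBDR.+/+ arrays overlapped. It fell by 0.70 against BBDR.+/+ (SE 0.17, adjusted p = 0.0422 from limma), a signal 1.63-fold lower. With the covariate for the controls the sign turned, to 0.76 against BBDR.+/+ and 0.55 against pre-hyperglycemia, neither past the threshold. Against pre-hyperglycemia the log2 fold change was -0.72 (95% interval -1.10 to -0.34, adjusted p = 0.0622 from limma), of the same size but not past the threshold. The pre-hyperglycemia value was 0.01 from BBDR.+/+ (adjusted p = 0.988 from limma). The call ended without BBDR.+/+ replicate 1 (-0.87, adjusted p = 0.0751), BBDR.+/+ replicate 2 (-0.54, adjusted p = 0.311) or post-hyperglycemia replicate 1 (-0.54, adjusted p = 0.186 from limma).

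Txnrd1 encodes the cytosolic thioredoxin reductase, which keeps thioredoxin reduced. Its brightest probe set (1398791_at) read 9.90 and 9.97 after hyperglycemia, 9.72 and 10.04 before it and 9.97 and 10.15 in BBDR.+/+. The pre-hyperglycemia arrays spanned the post-hyperglycemia ones and overlapped BBDR.+/+. Log2 fold changes were -0.13 (95% interval -0.41 to 0.15) against BBDR.+/+ and 0.05 (-0.23 to 0.33) against pre-hyperglycemia, with limma adjusted p of 0.645 and 0.907.

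The dimmer Txnrd1 probe set (1386958_at) had the largest fold change of the 12. It read 6.95 and 7.53 after hyperglycemia, 7.76 and 8.25 before it and 8.32 and 8.59 in BBDR.+/+, with no overlap between groups. It fell by 1.21 against BBDR.+/+ (SE 0.20, adjusted p = 0.00676 from limma), a signal 2.32-fold lower. The covariate turned this value too, to 0.29, and that against pre-hyperglycemia to 0.55, and neither passed. Against pre-hyperglycemia the log2 fold change was -0.76 (95% interval -1.21 to -0.32, adjusted p = 0.0866), and pre-hyperglycemia against BBDR.+/+ gave -0.45 (adjusted p = 0.434 from limma). The call against BBDR.+/+ ended without BBDR.+/+ replicate 2, at -1.08 (adjusted p = 0.114 from limma).

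**Figure D2:**
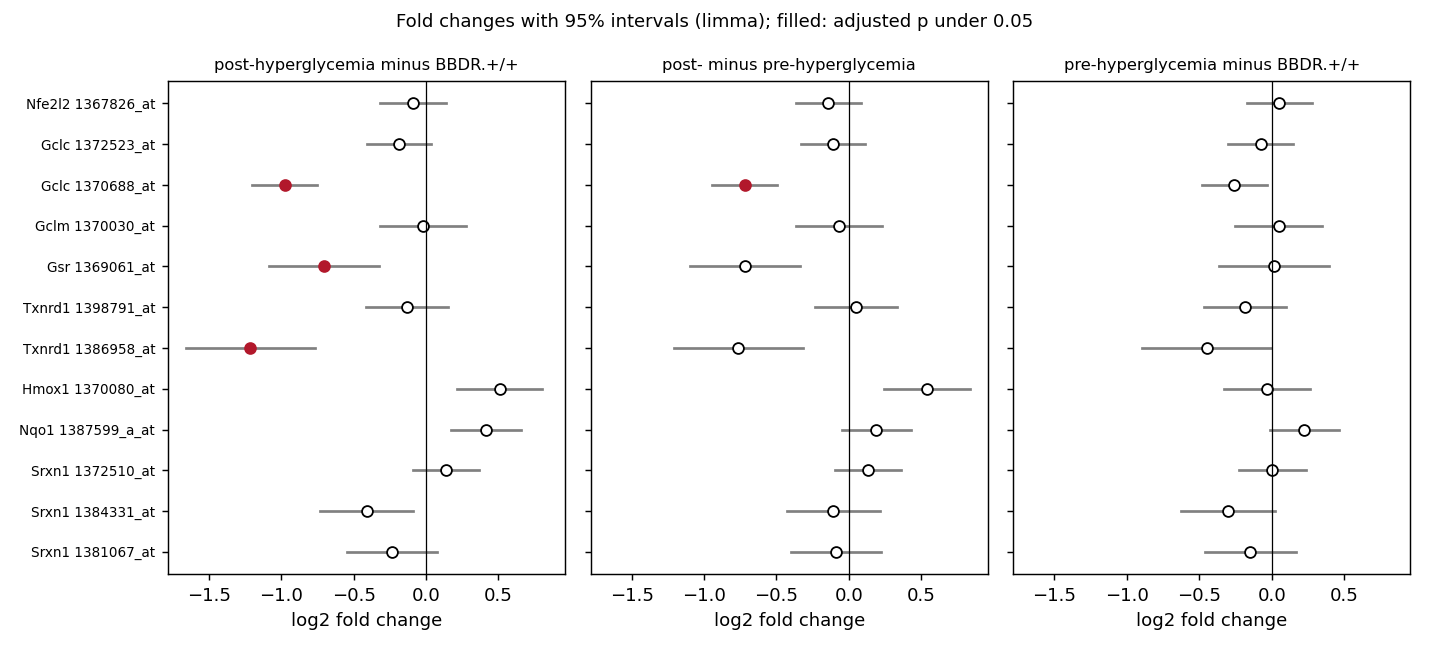
Log2 fold change (horizontal axis) of each of the 12 probe sets in the 3 comparisons, as points with 95% intervals from limma over 6 arrays. Filled points have an adjusted p under 0.05, and all of them, 3 against BBDR.+/+ and 1 against pre-hyperglycemia, lie left of 0.

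Hmox1 and Nqo1 are the NRF2 targets most used as markers of its activity, and both read highest after hyperglycemia. Hmox1 encodes heme oxygenase, which cleaves heme to biliverdin, iron and carbon monoxide. Its probe set (1370080_at) read 8.88 and 9.21 after hyperglycemia, 8.42 and 8.58 before it and 8.43 and 8.64 in BBDR.+/+. Both post-hyperglycemia arrays lay above the other 4, which overlapped. Fold changes on the log2 scale were 0.51 (95% interval 0.21 to 0.80, limma adjusted p = 0.0550) against BBDR.+/+ and 0.54 (0.24 to 0.83, adjusted p = 0.0682) against pre-hyperglycemia, neither past the threshold. Between pre-hyperglycemia and BBDR.+/+ it was -0.03 (adjusted p = 0.958 from limma).

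Kupffer cells, the macrophages of the liver, also make heme oxygenase. The summed linear signal of the 6 measured Kupffer cell markers of 8 listed ranged over 8280 to 9120 after hyperglycemia, 7917 to 8000 before it and 6570 to 6631 in BBDR.+/+. Against BBDR.+/+, 3 of the 6 (Clec4f, Cd5l and Cd163) were higher after hyperglycemia by limma, and against pre-hyperglycemia 0 were. Over the brightest probe sets of all 14217 genes 325 were called higher against BBDR.+/+. Markers of other cells were higher there too, 3 of 6 for neutrophils and monocytes and 1 of 4 for endothelial cells. The median log2 fold change of the 6 Kupffer cell markers was 0.38 against BBDR.+/+ and 0.07 against pre-hyperglycemia. In the latter comparison Cd163, the scavenger receptor for hemoglobin, was at 0.46 (adjusted p = 0.0774 from limma). It did not pass there and is 1 of the 6, so it does not stand for the list. The part of these cells in the Hmox1 values was not tested.

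Nqo1 encodes a quinone reductase. Its probe set (1387599_a_at) read 11.07 and 10.88 after hyperglycemia, 10.83 and 10.75 before it and 10.59 and 10.53 in BBDR.+/+, so the groups did not overlap and ran highest after hyperglycemia and lowest in BBDR.+/+. The log2 fold change was 0.42 (95% interval 0.18 to 0.65, limma adjusted p = 0.0538) against BBDR.+/+, 0.19 (-0.05 to 0.43, adjusted p = 0.467) against pre-hyperglycemia, and 0.23 (-0.01 to 0.47, adjusted p = 0.475) for pre-hyperglycemia against BBDR.+/+. None passed. Against BBDR.+/+, Hmox1 and Nqo1 both passed as higher when probe sets below the top 60% by mean signal were left out, and with 5 other settings given in the closing section. That filtered fit called 10.1% of its probe sets, with 4.38% higher. Neither gene passed with quantile normalization, the 4 arrays of the comparison alone, array weights, the t-test or rank product. With 1 array left out at a time, Hmox1 was at 0.34 to 0.67 and Nqo1 at 0.32 to 0.51. With the covariate for the controls Hmox1 was at 1.30 and Nqo1 at 0.10 against BBDR.+/+, neither past the threshold.

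Srxn1 encodes sulfiredoxin, which repairs over-oxidized peroxiredoxins, and its promoter held the letter matches to the relaxed form shown above. Its brightest probe set (1372510_at) read 8.08 and 7.94 after hyperglycemia, 7.85 and 7.90 before it and 7.84 and 7.90 in BBDR.+/+. The post-hyperglycemia arrays lay just above the rest, and the log2 fold change of 0.14 against BBDR.+/+ (95% interval -0.09 to 0.37) did not pass (adjusted p = 0.530 from limma). Against pre-hyperglycemia it was 0.13 (adjusted p = 0.626 from limma).

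The dimmer Srxn1 probe sets had fold changes below 0, and neither passed with all 6 arrays. The first (1384331_at) read 5.19 and 5.26 after hyperglycemia, 5.27 and 5.39 before it and 5.40 and 5.87 in BBDR.+/+. The log2 fold change against BBDR.+/+ was -0.41 (95% interval -0.73 to -0.09, adjusted p = 0.145 from limma). It was called without BBDR.+/+ replicate 1, at -0.65 (adjusted p = 0.0445 from limma), and was at -0.17 without BBDR.+/+ replicate 2, where it did not pass. With the covariate for the controls it was at 0.81, not past the threshold. The second (1381067_at) read 4.31 and 3.95 after hyperglycemia, 4.31 and 4.13 before it and 4.49 and 4.25 in BBDR.+/+, which is at or below the lower quartile of each array (4.49 to 4.54). Its groups overlapped, and its log2 fold change against BBDR.+/+ was -0.24 (adjusted p = 0.405 from limma).

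For each of the 3 genes with several probe sets, the dimmer ones thus had lower fold changes against BBDR.+/+ than the brightest. This was tested, after the values had been seen, by fitting limma to the dimmer minus the brightest signal on each array, over all 6609 dimmer probe sets of the 4525 genes that had any. For Gclc this difference was -1.74 and -1.68 on the post-hyperglycemia arrays, -1.07 and -1.13 on the pre-hyperglycemia arrays and -0.94 and -0.90 on the BBDR.+/+ arrays. It was lower after hyperglycemia by 0.79 than in BBDR.+/+ (adjusted p = 0.00250 from limma) and by 0.61 than before (adjusted p = 0.0318). For Txnrd1 it was -2.95 and -2.43 after hyperglycemia, -1.96 and -1.79 before it and -1.65 and -1.57 in BBDR.+/+. The Txnrd1 difference was lower after hyperglycemia by 1.08 than in BBDR.+/+ (adjusted p = 7.96e-04 from limma) and by 0.82 than before (adjusted p = 0.0164).

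In Srxn1 the first dimmer probe set was lower relative to the brightest by 0.55 in post-hyperglycemia than in BBDR.+/+ (adjusted p = 0.0393 from limma), and the second, at a difference of -0.37, did not pass (adjusted p = 0.153). With 1 array left out at a time, the differences of Gclc and Txnrd1 against BBDR.+/+ passed each time. That of Srxn1 ended without BBDR.+/+ replicate 2 (-0.34) or either post-hyperglycemia replicate (-0.44 and -0.65). Against pre-hyperglycemia the Gclc difference ended without any 1 of the pre- or post-hyperglycemia arrays (-0.58 to -0.64), and that of Txnrd1 when pre-hyperglycemia replicate 2 (-0.73) or post-hyperglycemia replicate 1 (-0.55) was left out.

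The same direction was common on these arrays. Against BBDR.+/+, 18% of all 6609 differences were called and 16% were called lower after hyperglycemia. Of the dimmer probe sets themselves 10.1% were called lower and 1.32% higher, whereas 1.26% of the brightest probe sets of those genes were called lower and 2.94% higher. In 584 of the 4525 genes (12.9%) a dimmer probe set was lower while the brightest was not called, as in Gclc and Txnrd1. Against pre-hyperglycemia 6.28% of the differences were called, and between pre-hyperglycemia and BBDR.+/+ 0.0757%. The 3′ minus 5′ differences of the controls, given above, were highest on the post-hyperglycemia arrays, and their part in the probe set differences was not tested. The files used here do not place the probe sets along the transcripts.

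**Figure D3:**
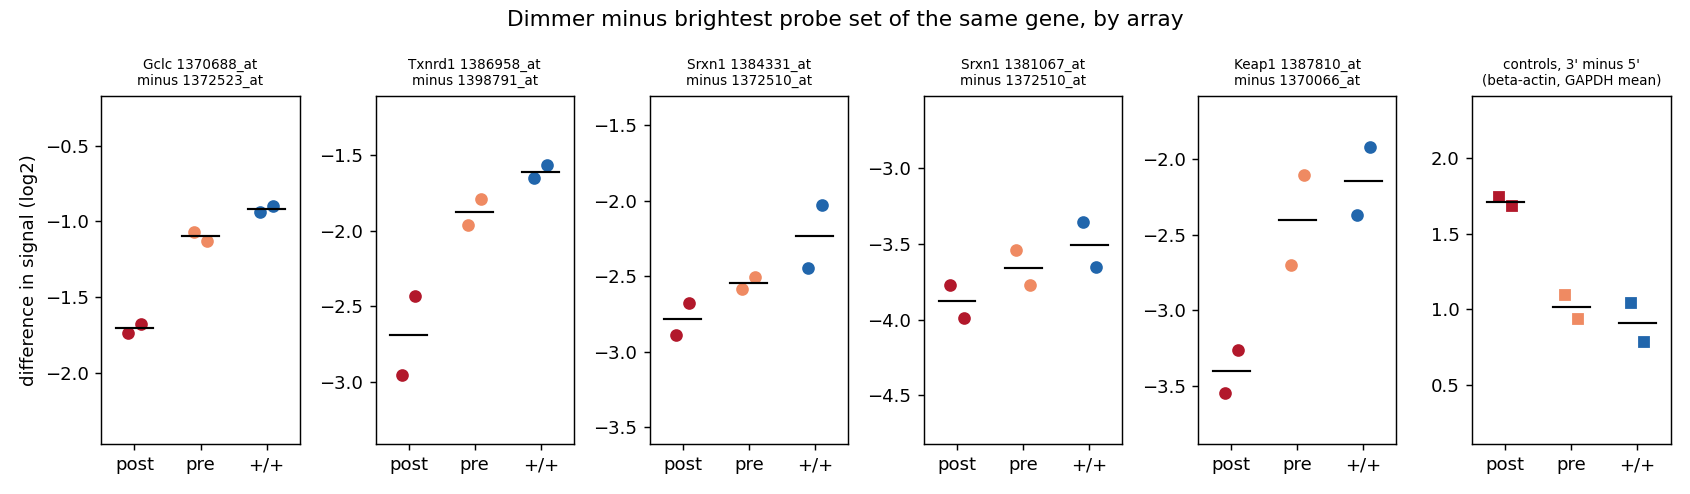
Signal of a dimmer probe set minus that of the brightest probe set of the same gene (log2, vertical axis), by array, for Gclc, Txnrd1, Srxn1 and Keap1, with the mean 3′ minus 5′ difference of the beta-actin and GAPDH controls at the right. Each point or square is 1 array and each line the mean of a group; the post-hyperglycemia (post) arrays are lowest for Gclc, Txnrd1, Keap1 and the first Srxn1 pair and highest for the controls. Keap1 is from the wider list. Other pairs of that list are not shown, among them Glrx, lower after hyperglycemia by 0.79 than in BBDR.+/+, and Me1, higher by 0.62.

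With the mean of all probe sets standing for a gene, and adjustment over all genes, more of the 8 genes passed against BBDR.+/+. Gclc (-0.58, adjusted p = 0.00676), Txnrd1 (-0.67, adjusted p = 0.0330) and Gsr (-0.70, adjusted p = 0.0397) were lower, and Nqo1 (0.42, adjusted p = 0.0348) and Hmox1 (0.51, adjusted p = 0.0440) were higher, all from limma. Nfe2l2, Gclm and Srxn1 did not pass. Over all 14217 genes of that fit 5.3% were called, with 2.8% lower and 2.5% higher. Against pre-hyperglycemia, of the 8 genes only Gclc passed, at -0.41 (adjusted p = 0.0363 from limma), and over all genes 2.31% were called.

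A wider list held 50 other genes of the pathway, from the sensor of NRF2 to NADPH supply, and 47 of them were measured by 61 probe sets. Taken by brightest probe set, 2 of the 47 genes were lower in post-hyperglycemia than in BBDR.+/+ liver and 0 were higher, with a median of -0.06. With an unadjusted p under 0.05 there were 5 higher and 4 lower genes, 10.6% and 8.51% of the list. Over the brightest probe sets of all genes these shares were 13.4% and 5.47%. Against pre-hyperglycemia, 2 were lower and 0 higher, with a median of -0.05. There 7 genes were lower and 1 higher at an unadjusted p under 0.05. These are 14.9% and 2.13% of the list, against 5.89% lower and 7.52% higher over the brightest probe sets of all genes. In pre-hyperglycemia against BBDR.+/+, limma called 0 of the 47, and rank product called 0. An unadjusted p under 0.05 was met there by 6 higher and 2 lower genes. These are 12.8% and 4.26% of the list, against 8.48% and 3.72% of all genes. Over the brightest probe sets of all 14217 genes, 3.52%, 1.37% and 0.802% were called in these 3 comparisons, and 4.26%, 4.26% and 0.00% of the list were. Without any 1 array the count against BBDR.+/+ was 0 or 1, and the count against pre-hyperglycemia was 0 to 3, with 0 once post-hyperglycemia replicate 1 or pre-hyperglycemia replicate 2 was left out, where 0.667% and 0.361% of all probe sets were called.

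**Figure D4:**
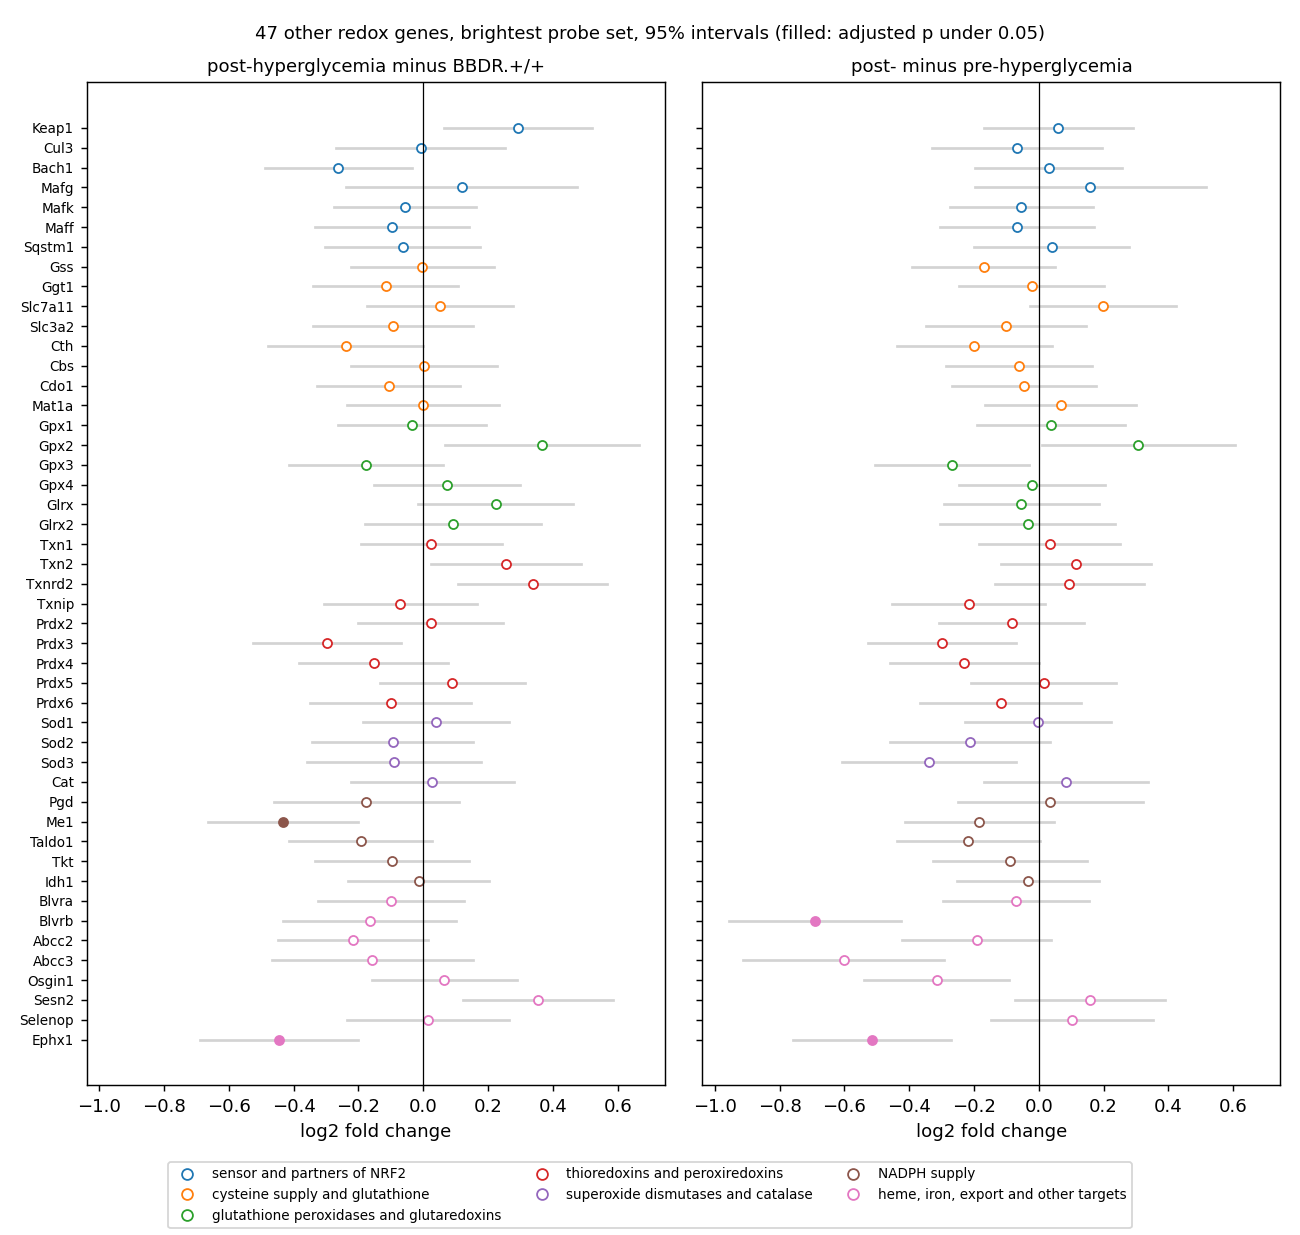
Log2 fold change (horizontal axis) of the brightest probe set of each of the 47 other redox genes, with 95% intervals from limma over 6 arrays, for post-hyperglycemia minus BBDR.+/+ (left) and post- minus pre-hyperglycemia (right). Colours mark the roles and filled points have an adjusted p under 0.05; 2 genes are filled in each panel, all left of 0.

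Among the 7 genes of the sensor and partners of NRF2, 0 of the brightest probe sets passed in any comparison, at -0.26 to 0.29 against BBDR.+/+. Keap1, the sensor that hands NRF2 over for destruction, had a dimmer probe set that was called while its brightest was not, as in Gclc and Txnrd1. The brightest (1370066_at) read 9.14 and 9.14 after hyperglycemia, 9.15 and 9.01 before it and 8.88 and 8.82 in BBDR.+/+. Against BBDR.+/+ its fold change of 0.29 did not pass (adjusted p = 0.144 from limma). The dimmer (1387810_at) read 5.60 and 5.88 after hyperglycemia, 6.45 and 6.90 before it and 6.51 and 6.90 in BBDR.+/+.

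The dimmer Keap1 probe set fell by 0.97 against BBDR.+/+ (adjusted p = 0.0101 from limma) and by 0.94 against pre-hyperglycemia (adjusted p = 0.0213). With the covariate for the controls both signs turned, to 0.60 and 0.43, neither past the threshold. Leaving out BBDR.+/+ replicate 2 (-0.77) or post-hyperglycemia replicate 1 (-0.82) removed the call against BBDR.+/+. Leaving out pre-hyperglycemia replicate 2 (-0.72) or post-hyperglycemia replicate 1 (-0.80) removed the other. The dimmer minus brightest difference was lower after hyperglycemia by 1.26 than in BBDR.+/+ (adjusted p = 6.80e-04 from limma). Bach1, a repressor that competes with NRF2 for the same elements, read 5.44 and 5.46 after hyperglycemia, 5.48 and 5.37 before it and 5.68 and 5.76 in BBDR.+/+, with a log2 fold change of -0.26 against BBDR.+/+ (adjusted p = 0.186 from limma).

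Cysteine supply and glutathione synthesis outside the ligase gave 0 calls among 8 genes, at -0.24 to 0.05 against BBDR.+/+. Gss, the synthetase of the second step of glutathione synthesis, read 9.11 and 9.16 after hyperglycemia, 9.27 and 9.34 before it and 9.12 and 9.15 in BBDR.+/+. The log2 fold change was -0.00 against BBDR.+/+ and -0.17 against pre-hyperglycemia, with limma adjusted p of 0.990 and 0.481. The 6 glutathione peroxidases and glutaredoxins, the 9 thioredoxins and peroxiredoxins and the 4 superoxide dismutases and catalase also gave 0 calls by brightest probe set in each comparison. Their medians against BBDR.+/+ were 0.08, 0.02 and -0.03. Txnip, which binds and blocks thioredoxin, read 10.49 and 10.47 after hyperglycemia, 10.60 and 10.79 before it and 10.58 and 10.52 in BBDR.+/+, with log2 fold changes of -0.07 against BBDR.+/+ and -0.22 against pre-hyperglycemia and limma adjusted p of 0.782 and 0.388.

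Of the 5 measured genes of NADPH supply, malic enzyme (Me1) was lower against BBDR.+/+ and the others did not pass. Its brightest probe set (1370067_at) read 8.92 and 8.99 after hyperglycemia, 9.09 and 9.19 before it and 9.33 and 9.44 in BBDR.+/+. It fell by 0.43 against BBDR.+/+ (SE 0.10, adjusted p = 0.0397 from limma), a call that ended without any 1 of the 6 arrays (-0.38 to -0.49). With the covariate for the controls it was at -0.04, not past the threshold. The dimmer Me1 probe set (1370870_at) read 9.44 and 9.27 after hyperglycemia, 8.86 and 8.82 before it and 9.14 and 9.19 in BBDR.+/+. It was higher by 0.52 than before hyperglycemia (adjusted p = 0.0332 from limma), the opposite direction to its partner, whose log2 fold change was -0.18 there (adjusted p = 0.463). With 1 array left out at a time the value was 0.44 to 0.60, and the call remained only without post-hyperglycemia replicate 2. With the covariate the value was 0.51, not past the threshold. In Me1 the dimmer minus brightest difference was higher after hyperglycemia, by 0.62 than in BBDR.+/+ (adjusted p = 0.0135 from limma).

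Among the 8 measured genes of heme, iron, export and other targets, Ephx1 and Blvrb passed. Ephx1, the microsomal epoxide hydrolase, read 11.98 and 11.95 after hyperglycemia, 12.37 and 12.59 before it and 12.37 and 12.45 in BBDR.+/+. It fell by 0.45 against BBDR.+/+ (adjusted p = 0.0438 from limma) and by 0.52 against pre-hyperglycemia (adjusted p = 0.0404), with the pre-hyperglycemia and BBDR.+/+ values 0.07 apart. Against BBDR.+/+ the call ended without any 1 array of the groups compared (-0.41 to -0.48). Against pre-hyperglycemia it remained only without pre-hyperglycemia replicate 1, and without the others the value was -0.41 to -0.53. With the covariate for the controls Ephx1 was at -0.01 against BBDR.+/+ and -0.14 against pre-hyperglycemia, neither past the threshold.

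Blvrb, a biliverdin reductase that is abundant in red blood cells, read 9.47 and 9.73 after hyperglycemia, 10.23 and 10.35 before it and 9.69 and 9.84 in BBDR.+/+. It fell by 0.69 against pre-hyperglycemia (SE 0.12, adjusted p = 0.0170 from limma), a call lost when pre-hyperglycemia replicate 2 (-0.63) or post-hyperglycemia replicate 1 (-0.56) was left out. With the covariate for the controls it was at -0.17, not past the threshold. Against BBDR.+/+ its log2 fold change was -0.16 after hyperglycemia (adjusted p = 0.515 from limma) and 0.53 before it (adjusted p = 0.0955), the smallest p of the list in that comparison. The next there were Osgin1 at 0.38 (adjusted p = 0.148) and the bile transporter Abcc3 at 0.44 (adjusted p = 0.231 from limma). The summed linear signal of the 5 measured erythroid markers of 7 listed, led by Hbb, ranged over 5219 to 5522 after hyperglycemia, 6659 to 7389 before it and 5978 to 6352 in BBDR.+/+, in the same order of groups as Blvrb. Of the 5, 0 passed against pre-hyperglycemia, and the part of red blood cells in the Blvrb values was not tested.

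The dimmer probe set of Sesn2 (1396901_at), a sestrin, is named after its values were seen. It read 5.84 and 5.73 after hyperglycemia, 5.70 and 5.44 before it and 5.25 and 5.03 in BBDR.+/+, and was higher after hyperglycemia than in BBDR.+/+ by 0.64 (adjusted p = 0.0147 from limma). The brightest Sesn2 probe set had a log2 fold change of 0.35 (adjusted p = 0.0838), so both probe sets lay on the same side of 0. Leaving out BBDR.+/+ replicate 2 (0.53) or post-hyperglycemia replicate 1 (0.59) removed the call, and with the covariate for the controls the sign turned, to -0.21, not past the threshold.

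The likeness of other genes to 3 members was measured by Pearson's r over the 6 arrays, which share their groups, so these values only describe the arrays. The probe sets nearest to Nfe2l2 were those of Myo1c (0.992), Dhtkd1 (0.990) and Mmp24 (0.988), and 94 of 20825 probe sets with 1 symbol exceeded 0.95. Those nearest to the brightest Gclc probe set were of Wwc2 (0.998), Dnajc12 (0.997) and Pdgfrb (0.994), with 166 of 20824 above 0.95. Those nearest to the brightest Txnrd1 probe set were of the thyroid hormone receptor Thrb (0.995), Supt6h (0.991) and Pgd (0.984), with 24 above 0.95. Pgd, an enzyme of NADPH supply, is also on the wider list.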

How the data were processed

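Liver RNA was amplified, labeled and hybridized to Affymetrix RG230 2.0 arrays. The labels and the methods name different amplification kits. Affymetrix Expression Console was used by the authors to quantify the images and Partek Genomic Suite to normalize them, and the deposited values are on the log2 scale. For neither tool do the sources used here give a version, nor for Partek an algorithm.

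Of 31099 probe sets, 57 controls were set aside. Gene symbols came from the array's annotation: 20826 probe sets had 1 symbol, 436 several and 9780 none, and 20758 Entrez identifiers were found in the current table of rat genes. limma (version 3.58.1, R 4.3.3) was fitted to the 31042 probe sets on 6 arrays, with 1 mean per group, 3 residual and 7.70 prior degrees of freedom. p-values were adjusted over all probe sets. Intervals are 95% and unadjusted. Fold changes have post-hyperglycemia on top, or pre-hyperglycemia where it is set against BBDR.+/+, as the deposited labels place the arrays. Rank product was run on pairwise ratios with 100 permutations at a share of false positives under 0.20, the level of the methods. The scripts were tested on simulated data.

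The members and gene lists were chosen with earlier results of these data known. Every member probe set was named. Of the wider list, the up to 6 genes with the smallest p past the threshold in a comparison were named (the first 3 where none passed), and always Keap1, Bach1, Gss and Txnip. For likeness the 3 nearest genes were named. The markers of hepatocytes, Kupffer cells and erythroid cells are described in the report. Of markers of 6 other cell types, higher or lower after hyperglycemia than in BBDR.+/+ were 3 and 0 of 6 for neutrophils and monocytes, 1 and 0 of 4 for endothelial cells, and 0 and 0 of 7 for T cells, of 4 for cholangiocytes, of 6 for stellate cells and of 6 for pancreatic acinar cells. Alternatives were other normalizations, filters on signal, other fits, the methods' t-test, rank product, a covariate for the 3′ minus 5′ controls and leaving out each array. Tables and figures were made in Python 3.11.15 with pandas 2.3.3, numpy 2.4.6, matplotlib 3.10.9 and scipy 1.17.1.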

Additional observations from a re-analysis of the deposited data

How the results depend on the processing

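Only 2 arrays per group limit every value. The count of member probe sets lower or higher against BBDR.+/+ (3 as reported) was 5 with array medians centred, centred on ribosomal protein genes, in the top 60% or 30% of probe sets, with an intensity trend or with a replicate block, the 2 added being Hmox1 and Nqo1 as higher. The share of all probe sets called, 5.15% as reported, was 5.26%, 5.87%, 10.1%, 15.7%, 7.64% and 7.32% in these 6 settings. The member count was 0 with the methods' t-test and 0 with the covariate for the 3′ minus 5′ controls. Both called 0 of all 31042 probe sets here and against pre-hyperglycemia. With 1 array left out the member count was 1 to 3. Against pre-hyperglycemia (1 as reported) the member count was 2 centred on ribosomal protein genes, 3 in the top 60%, 4 in the top 30%, 4 with an intensity trend, 4 with a replicate block (adding Gsr at -0.72, Txnrd1 1386958_at at -0.76 and Hmox1 at 0.54, with adjusted p of 0.00408, 0.00484 and 0.0167 from limma), 3 by rank product, 0 with the t-test, 0 with the covariate, and 0 to 3 with 1 array left out. All probe sets called there were 2.18% as reported and 2.26%, 4.96%, 9.08%, 3.95%, 3.84% and 1.72% in the first 6 of these. Between pre-hyperglycemia and BBDR.+/+ the count was 0 in every alternative. The covariate separates the post-hyperglycemia arrays from the others. With it Gsr was at 0.76 and Txnrd1 1386958_at at 0.29 against BBDR.+/+, the opposite sign to the reported values, and the cause was not tested. Gclc 1370688_at was at -0.97 there (adjusted p = 0.668 from limma) and at -0.71 against pre-hyperglycemia (adjusted p = 0.72 from limma).

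For the wider list against BBDR.+/+ (2 as reported) the count was 1 with array medians centred, 1 with quantile normalization, 1 centred on ribosomal protein genes, 1 with the 4 arrays of the comparison, 1 with array weights, 6 in the top 30%, 4 with an intensity trend, 0 with the t-test, 0 by rank product, 0 with the covariate, and 0 to 1 with 1 array left out. Against pre-hyperglycemia (2 as reported) it was 1 with quantile normalization, 1 centred on ribosomal protein genes, 1 with the 4 arrays, 4 with an intensity trend, 0 with the t-test, 1 by rank product, 0 with the covariate, and 0 to 3 with 1 array left out. Between pre-hyperglycemia and BBDR.+/+ (0 as reported) it was 2 in the top 30%, 2 with an intensity trend and 1 with a replicate block. Of all probe sets in these settings 4.33%, 1.6% and 1.31% were called. Against BBDR.+/+, quantile normalization, the 4 arrays and array weights called 5.03%, 5.05% and 4.41% of all probe sets. Against pre-hyperglycemia, quantile normalization and the 4 arrays called 1.98% and 1.33%. The replicate numbers do not say that same-numbered arrays share a rat or day. Deviations of same-numbered arrays correlated at 0.26 (pre-hyperglycemia and BBDR.+/+), 0.11 (post- and pre-hyperglycemia) and 0.14 (post-hyperglycemia and BBDR.+/+).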
